A study of Mus musculus with 12 samples.

Results

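miR-126a is a mouse microRNA made from 1 hairpin, the transcript Mir126a, which gives 2 mature arms, mmu-miR-126a-3p and mmu-miR-126a-5p, written below without the species prefix. Both arms were followed by name through a table of small RNA counts from extracellular vesicles, the membrane particles that cells release, of cultured bone marrow mesenchymal stem cells of C57BL/6 mice. The 2 arms are 2 of 1978 annotated mouse miRNA rows, and 1 of them, the 3p arm, passed the filter on low counts with 131 other miRNAs. The 3p arm was selected on its counts in these same libraries, which had been seen to separate aFM from DZ and from NY, and the 5p arm was added because it comes from the same hairpin. Levels, differences and shares of both arms are therefore given as a description with no test.

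The 12 libraries form 4 groups of 3, named PLL, NY, aFM and DZ by their titles. The design text describes cells given 2 µg/ml of hydatid antigen preparations called ESPs, HCF and pLL for 48 h before vesicles were collected by ultracentrifugation. PLL carries the name of pLL, the labels leave NY, aFM and DZ unexplained, and every library carries the same treatment label, antigen intervention. An unstimulated group cannot be picked out from the labels. DZ served only as a common point of comparison. The labels do not tie replicates to separate cultures or mice, so the spread between them, on which every p-value rests, may be technical.

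miR-126 is known as a microRNA of endothelial cells, the lining of blood vessels, and is also found in haematopoietic progenitors, megakaryocytes and platelets. It lies within Egfl7, a gene for a secreted protein of endothelial cells. The 3p arm strengthens signalling by vascular endothelial growth factor by repressing Spred1 and Pik3r2, inhibitors of the downstream kinases, and in human endothelial cells it also represses the adhesion molecule VCAM1. The 5p arm has been linked to endothelial proliferation through Dlk1. In the vesicle field miR-126 is known as cargo passed from endothelial cells to other vessel wall cells. Mesenchymal stem cells are stromal cells of the bone marrow.

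The hairpin, its measured arm and the arms of the hairpin on the opposite strand are shown because they decide which reads can be told apart. Sequences are from RefSeq on GRCm38.p6 and run 5′ to 3′. In the hairpin the capitals mark the 3p arm, and in the mature sequences they mark the seed, bases 2 to 8, which pairs with targets.
Mir126a hairpin: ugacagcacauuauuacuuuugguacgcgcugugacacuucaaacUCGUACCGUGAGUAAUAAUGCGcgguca
miR-126a-3p: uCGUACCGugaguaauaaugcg
miR-126b-5p: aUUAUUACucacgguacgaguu
miR-126b-3p: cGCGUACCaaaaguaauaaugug

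Mir126a is a hairpin of 73 bases on the plus strand at chr2:26591357-26591429, and miR-126a-3p takes chr2:26591402-26591423. In the GENCODE annotation of GRCm38, 9 transcripts of Egfl7 span the hairpin on the same strand. It is intronic in 8 of them, all 7 protein-coding ones included, and exonic in 1 retained-intron transcript. The table itself gives no coordinates for named miRNAs, and the build in the submitters' processing notes is mm39, so these positions belong to the reference only. Mir126b, of 58 bases, lies wholly inside Mir126a on the minus strand at chr2:26591363-26591420 and is the exact reverse complement of that stretch. Its arms miR-126b-5p and miR-126b-3p had 0 counts in all 12 libraries, where a count of 0 allows up to 3 counts, or 49.6 to 170.4 CPM, each library's count scaled to its total of annotated miRNA counts. Of the 1978 annotated rows, 1679 had a sequence in the reference table. No other of these mature miRNAs shares the seed of miR-126a-3p, and no other row of the table held the same counts.

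The depth behind these values was small. Library totals ran from 68647 to 214303 counts, of which 17607 to 60436 fell on annotated miRNAs and the rest on predicted loci without a miRNA name. Annotated miRNAs took 29.2% to 60.7% of a library in PLL, 18.6% to 30.6% in NY, 10.7% to 19.9% in aFM and 10.3% to 21.6% in DZ. PLL replicate A stood apart, with the highest annotated share and the lowest TMM scaling factor (0.73; TMM corrects library sizes for differences in composition). All 11 mesenchymal markers listed for the labelled cells had counts and passed the filter, and they summed to 169383 to 185237 CPM in PLL, 213106 to 228333 in NY, 168003 to 173378 in aFM and 178400 to 221383 in DZ. By group mean, miR-21a-5p and miR-143-3p made most of each sum, and the identity of the cells was not tested.

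miR-126a-3p was highest in aFM, in all 3 libraries. It had 75, 76 and 72 counts in PLL replicates A, B and C, or 1241, 2148 and 2518 CPM of annotated counts. In NY it had 11, 16 and 26 counts, or 365, 456 and 920 CPM. In aFM it had 112, 139 and 152 counts, or 4890, 5234 and 5135 CPM. In DZ it had 10, 25 and 9 counts, or 547, 1420 and 364 CPM. The aFM libraries lay above all 9 others and close together, whereas DZ replicate B was well above the other DZ libraries and inside the range of PLL.

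The group means were 1969 ± 657 CPM in PLL, 580.3 ± 298 in NY, 5086 ± 177 in aFM and 777 ± 565 in DZ (SD, n = 3 each). The coefficient of variation between replicates was 33.4% in PLL, 51.3% in NY, 3.48% in aFM and 72.7% in DZ, where counting alone at the mean level would give 11.6%, 23.6%, 8.69% and 25.5%. The aFM replicates thus differed by less than counting error, and the others by more. Among annotated miRNAs ranked by count, the 3p arm stood at place 47 to 64 in PLL, 71 to 103 in NY, 29 to 35 in aFM and 59 to 99 in DZ, of 212 to 287 miRNAs with a count. These are bulk vesicle preparations, so more vesicles from 1 kind of cell and more of the miRNA per vesicle cannot be told apart.

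**Figure D1:**
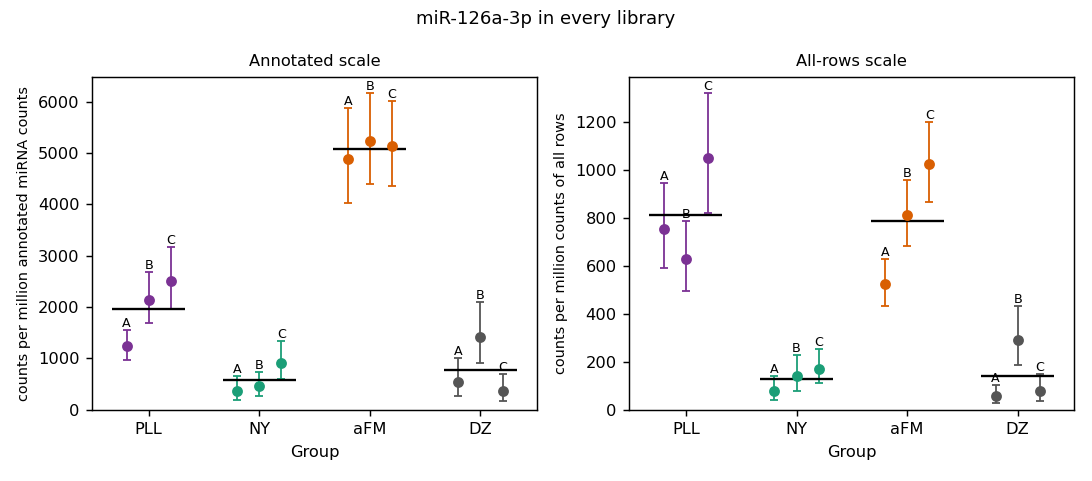
miR-126a-3p in each library, by group, as CPM of annotated miRNA counts (left) and of the counts of all rows (right). Points are libraries with replicate letters, bars are exact 95% Poisson intervals of the count, and black lines are group means. On the left the aFM libraries sit at 4890 to 5234 CPM above all others, and on the right PLL and aFM overlap.

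On the annotated scale the order of means was aFM, PLL, DZ and NY. The step between aFM and PLL was larger than the summed spread of those groups, 3117 CPM against a summed SD of 834, and their libraries did not overlap. The step between PLL and DZ was 1193 CPM against a summed SD of 1222, and DZ replicate B lay between PLL replicates A and B. NY and DZ differed by 196 CPM against a summed SD of 862 and overlapped. On this scale neither of these last 2 neighbouring pairs is separated beyond its spread. With TMM-scaled library sizes the libraries of PLL, at 1698 to 2291 CPM, lay above those of DZ, at 341 to 1423. NY, at 365 to 865, still overlapped DZ.

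Fitted log2 fold changes, which use TMM-scaled library sizes, follow that order. Comparisons that name the same group share its libraries. miR-126a-3p was higher in aFM than in DZ by 2.63 ± 0.46 on the log2 scale (SE). Without DZ replicate B, the highest of its group, the difference was 3.40, and across all single libraries left out it ran from 2.25 to 3.40. For PLL against DZ the log2 fold change was 1.34 ± 0.46 (SE), and it was 2.05 without DZ replicate B and 0.83 without DZ replicate C. NY against DZ gave -0.43 ± 0.48 (SE), less than 1 SE from 0, and its sign turned to 0.32 without DZ replicate B.

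Between the other groups, NY against aFM gave a log2 fold change of -3.06 ± 0.46 (SE), with -3.49 to -2.84 when libraries were left out singly. PLL against aFM gave -1.29 ± 0.42 and PLL against NY 1.76 ± 0.45 (SE). Without PLL replicate A, the library that stood apart, these were -1.26 and 1.87, and PLL against DZ was 1.40. The libraries of PLL and NY did not overlap, nor did those of NY and aFM or of aFM and DZ.

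**Figure D2:**
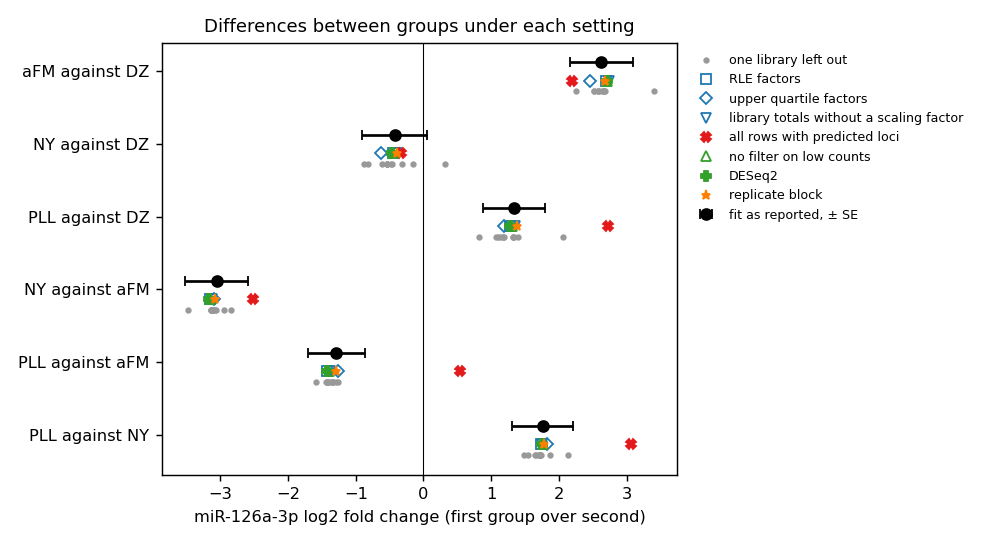
Log2 fold change of miR-126a-3p in each of the 6 comparisons (rows), first group over second. Black points with bars are the fit as reported ± SE, grey dots leave out 1 library each, and other symbols are other settings. The red cross of PLL against aFM lies at 0.54, on the other side of 0 from the reported -1.29, and 1 grey dot of NY against DZ lies at 0.32.

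The place of PLL depended on what the counts were divided by. As CPM of all rows, predicted loci included, miR-126a-3p stood at 753, 628 and 1049 in PLL, 79.3, 139.6 and 172 in NY, 523, 811 and 1022 in aFM and 56.2, 291 and 78.4 in DZ. On that scale the means were 810.2 ± 216 in PLL, 130.1 ± 46.9 in NY, 785.0 ± 251 in aFM and 142 ± 130 in DZ (SD, n = 3 each). PLL and aFM then overlapped, with a ratio of means of 1.03, where on the annotated scale PLL held 0.387 of the aFM mean. PLL stood above all DZ libraries on this scale, 5.70 times their mean, while aFM stood at 5.53 times the DZ mean. In the fit over all rows the log2 fold change of PLL against aFM was 0.54 ± 0.63 (SE), of the opposite sign, beside a median of 2.13 over annotated miRNAs in that comparison. Relative to that median the arm was lower in PLL, and relative to all counted reads it was not. The high level of aFM and PLL over NY, and of aFM over DZ, held on both scales.

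The 5p arm was close to the limit of detection. miR-126a-5p had 0, 0 and 1 counts in PLL, 0 in each NY library, 3, 1 and 1 counts in aFM and 0, 0 and 4 counts in DZ. aFM was the group with a count in every library, and in DZ all 4 counts came from replicate C. The arm did not pass the filter on low counts. In CPM of annotated counts the group means were 11.7 ± 20.2 in PLL, 67.5 ± 55.0 in aFM and 53.9 ± 93.3 in DZ (SD, n = 3), while the 0 counts of NY allow up to 32.1 CPM over the group. The ratio of summed counts, each over the group's summed annotated counts, was 0.959 for aFM against DZ (5 and 4 counts, exact 95% interval 0.206 to 4.83), 0.122 for PLL against DZ (1 and 4 counts, 0.00248 to 1.23) and 0.127 for PLL against aFM (1 and 5 counts, 0.00269 to 1.14). For aFM against DZ the direction thus depended on summing or averaging, since the mean was higher in aFM. These intervals include 1 and cover counting error only, so in these comparisons a difference in the 5p arm was not detectable at this depth. No ratio or interval was formed for NY, whose 0 counts stood against 5 in aFM, 4 in DZ and 1 in PLL. Whether the 5p arm was lower in NY was thus not tested.

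The 3p arm held nearly all counts of the hairpin. Over the 12 libraries the 5p arm took 10 of 733 counts, a share of 1.36% (exact Clopper-Pearson 95% interval 0.656% to 2.49%). Pooled by group, the share was 0.446% in PLL (1 of 224 counts, 0.0113% to 2.46%), 0% in NY (0 of 53 counts, up to 6.72%), 1.23% in aFM (5 of 408 counts, 0.399% to 2.84%) and 8.33% in DZ (4 of 48 counts, 2.32% to 20.0%). DZ replicate C alone had 4 of 13 counts on the 5p arm, or 30.8% (9.09% to 61.4%), and without it the share over the remaining libraries was 0.833% (0.306% to 1.80%). The counts in that library are few, and its 9 counts of the 3p arm were the lowest of all libraries.

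The share is a description with no test, since the 3p counts on which miR-126a was selected are 723 of these 733 counts. By library it was 0%, 0% and 1.37% in PLL, 0% in each NY library, 2.61%, 0.714% and 0.654% in aFM, and 0%, 0% and 30.8% in DZ. A library with no 5p count still allowed a share of up to 4.74% in PLL replicate B and up to 30.8% in DZ replicate A. The intervals of all libraries but DZ replicate C reach below 1%, and the intervals of the 4 groups overlap.

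**Figure D3:**
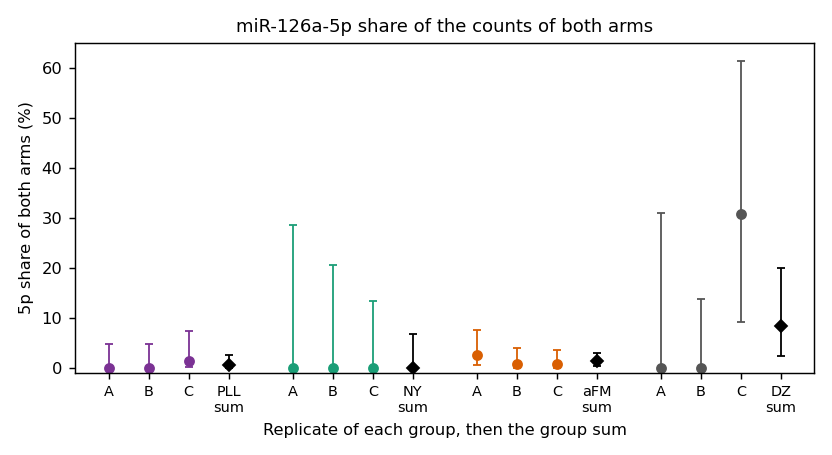
Share of the 5p arm in the counts of both arms (percent), for each library and, as black diamonds, for each group's summed counts. Bars are exact Clopper-Pearson 95% intervals. DZ replicate C lies at 30.8% with an interval down to 9.09%, and all other libraries lie at 2.61% or lower.

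The miRNAs whose pattern over the 12 libraries was most like that of miR-126a-3p were also highest in aFM. Likeness was the root mean square difference of log2 CPM after each miRNA's own mean was taken off, over all 131 other miRNAs tested. It was 0.72 for miR-409-3p, 0.86 for miR-365-1-5p, 0.91 for miR-342-5p, 0.91 for miR-381-3p and 0.94 for miR-5099 on the log2 scale, against a median of 1.48 over the 131. Ranking by Pearson correlation named the same 5. miR-126a-3p itself had an SD of 1.28 over the libraries. These are descriptions of 12 libraries that share their groups and their scaling. The 5 were picked for likeness to a pattern that peaks in aFM, so their high level there largely follows from the choice.

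miR-409-3p, which lies in the imprinted Dlk1-Dio3 cluster, averaged 428 ± 199 CPM in PLL, 273 ± 135 in NY, 1236 ± 175 in aFM and 56.8 ± 98.4 in DZ (SD, n = 3 each). miR-381-3p, of the same cluster, averaged 148 ± 156 in PLL, 87.6 ± 26.7 in NY, 732 ± 173 in aFM and 83.7 ± 85.2 in DZ. miR-342-5p, a minor arm of a hairpin within Evl, averaged 365 ± 132 in PLL, 240.2 ± 88.6 in NY, 624 ± 126 in aFM and 167 ± 115 in DZ. In these 3, as in miR-126a-3p, aFM had the highest mean, and the lowest was in DZ in all but miR-126a-3p. miR-365-1-5p averaged 330.0 ± 131 CPM in PLL, 249 ± 62.3 in NY, 756 ± 49.2 in aFM and 283 ± 228 in DZ. miR-5099 averaged 278 ± 257 in PLL, 314 ± 191 in NY, 1422 ± 351 in aFM and 159 ± 158 in DZ. All 5 were scarcer than miR-126a-3p in aFM. The mature sequences on GRCm38.p6 that the reference holds are shown, seeds in capitals, because a shared seed would tie them to the same targets.
miR-409-3p: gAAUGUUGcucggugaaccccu
miR-365-1-5p: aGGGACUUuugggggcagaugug
miR-342-5p: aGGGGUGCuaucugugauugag
miR-381-3p: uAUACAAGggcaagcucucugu
None of these seeds is that of miR-126a-3p. The sequence of miR-5099 is not used here.

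**Figure D4:**
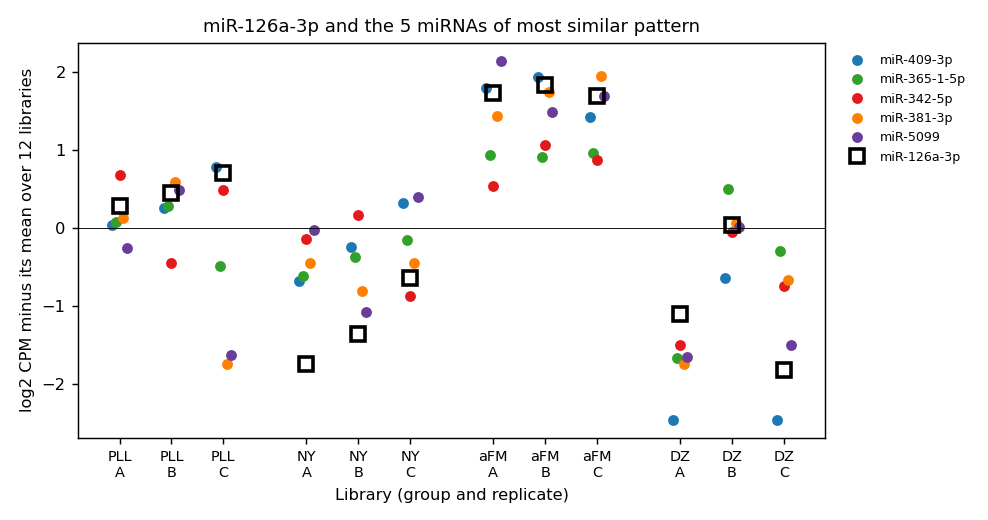
Log2 CPM of miR-126a-3p (open black squares) and of the 5 miRNAs of most similar pattern (coloured dots) in each library, each minus its mean over the 12 libraries. All 6 lie above 0 in every aFM library, and miR-126a-3p lies lowest in DZ replicate C and NY replicate A.

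Other miRNAs linked to vessels give the setting of an endothelial miRNA. Of 22 listed vascular miRNAs other than miR-126a, 20 had counts and 12 passed the filter. The one with the most counts over the 12 libraries, miR-27b-3p, which acts on endothelial tip cells in zebrafish, averaged 20424 ± 16340 CPM in PLL, 12649 ± 2693 in NY, 13183 ± 1562 in aFM and 13637 ± 1840 in DZ (SD, n = 3 each), with 1 PLL library at 39248. miR-92a-3p was higher than it in NY, at 13969 CPM, and in DZ, at 15199 CPM. A miRNA is said to be higher or lower where the adjusted p of edgeR's quasi-likelihood test, by Benjamini-Hochberg over all 132, fell under 0.05. In aFM against DZ, 1 of 12 was higher and 1 lower, where 9.09% of all miRNAs tested were higher and 9.85% lower, and the median log2 fold change was -0.12 in the list and -0.14 over all miRNAs tested.

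The higher one was miR-222-3p, which restrains human endothelial cells through KIT, with 4185 ± 1136 CPM in aFM and 1700 ± 874 in DZ (SD, n = 3 each). Its log2 fold change was 1.20 ± 0.37 (SE; edgeR, Benjamini-Hochberg adjusted p = 0.0425). The lower one was miR-210-3p, induced by low oxygen, with 60.2 ± 56.8 CPM in aFM and 385 ± 92.8 in DZ. In aFM miR-210-3p ran from 0 to 113 CPM, near the limit of detection, since 3 counts are 101 to 131 CPM there. Its log2 fold change was -2.65 ± 0.79 (edgeR, adjusted p = 0.0415). Both calls depended on which libraries were kept. miR-210-3p was lost whichever of the 12 libraries was left out (edgeR adjusted p up to 0.127), with the replicate letter as a block (adjusted p = 0.0651) and by DESeq2 (adjusted p = 0.0725). miR-222-3p was lost without each aFM and NY library, PLL replicate B and DZ replicates A and B (edgeR adjusted p up to 0.208).

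In PLL against aFM, where miR-126a-3p was lower on the annotated scale, 4 of the 12 vascular miRNAs were higher and 0 lower, against 6.06% higher and 3.03% lower among all miRNAs tested. The median log2 fold change was 0.79 in the list and 0.31 over all miRNAs tested. It was 0.78 in the mesenchymal markers and 0.054 in the blood miRNAs tested, so the shift was not particular to the vascular list. Without PLL replicate A the median over all miRNAs tested was 0.012, and that of the list was not computed. The vascular list summed to 116305 CPM in PLL replicate A, 56283 and 64354 in B and C, and 57872 to 62568 in aFM. One of the 4 was miR-221-3p, the partner of miR-222-3p, with 3965 ± 440 CPM in PLL and 1979 ± 254 in aFM (SD, n = 3 each). Its log2 fold change was 1.14 ± 0.25 (edgeR, adjusted p = 0.0141). The others were miR-23a-3p at 2.26 ± 0.49 (edgeR, adjusted p = 0.0141), miR-210-3p at 2.88 ± 0.75 (edgeR, adjusted p = 0.0317) and miR-23b-3p at 1.81 ± 0.48 (edgeR, adjusted p = 0.034). The call of miR-23a-3p was lost without aFM replicate B or C. That of miR-221-3p was lost without each aFM library and PLL replicates B and C, and that of miR-23b-3p without each aFM library, PLL replicate A and NY replicates A and C. That of miR-210-3p, near the limit of detection in aFM, was lost without each aFM and PLL library and DZ replicates A and C. With the replicate letter as a block, 2 of the 4 passed.

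In the other 4 comparisons edgeR called 0 of the 12. The background over all miRNAs tested was 0.758% higher and 0% lower for NY over DZ, and 0.758% higher and 3.03% lower both for PLL over DZ and for NY over aFM. For PLL over NY it was 3.03% higher and 3.79% lower. At an unadjusted p under 0.05 the list had 1 for NY over DZ, 3 for PLL over DZ, 4 for NY over aFM and 1 for PLL over NY. The backgrounds given are for the adjusted p. The share over all miRNAs tested at the unadjusted threshold was not counted, so no excess is read from these counts. DESeq2 called 2 in NY against aFM, where it called 3 higher and 10 lower over all 132 miRNAs, and 0 in the other 3. Without PLL replicate B edgeR called 1 in PLL against DZ, where 6 were higher and 11 lower over all 132. Without PLL replicate A it called 1 in NY against aFM, where 3 were higher and 9 lower over all 132.

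**Figure D5:**
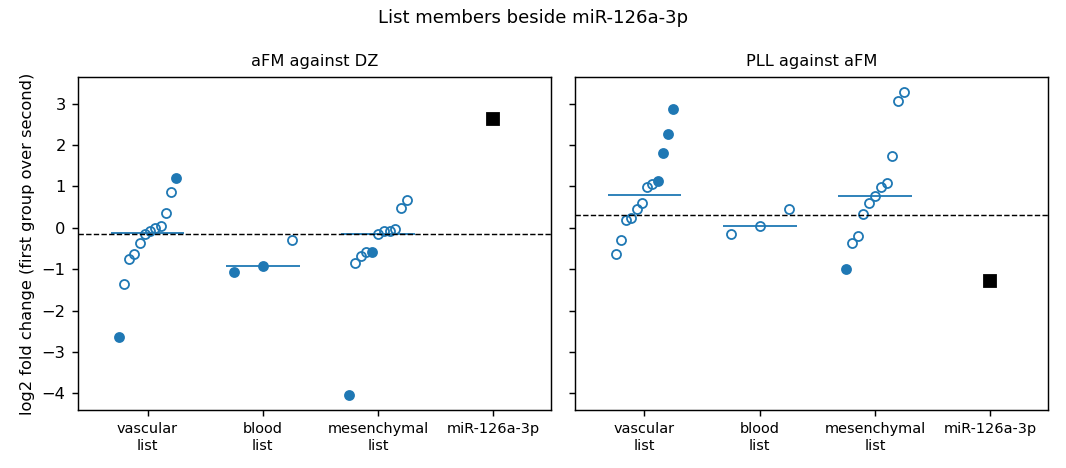
Log2 fold changes of the tested members of the vascular, blood and mesenchymal lists (circles, filled where the adjusted p is under 0.05) beside miR-126a-3p (square) in aFM against DZ (left) and PLL against aFM (right). Short lines are list medians and the dashed line is the median of all 132 miRNAs tested. miR-126a-3p lies above every listed miRNA on the left, at 2.63, and below every one on the right, at -1.29. It was selected on counts that separate aFM from DZ, and the lists were not, so its place on the left follows from that choice. Its sign on the right turns with predicted loci in the fit.

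Blood miRNAs were followed because miR-126 is also a miRNA of haematopoietic cells and platelets. All 8 listed had counts and 3 passed the filter. Their summed level was 35939 to 80509 CPM in PLL, 69859 to 122287 in NY, 54578 to 86336 in aFM and 68867 to 126257 in DZ, and it overlapped between all groups. Most of it was miR-486a-5p, an erythroid miRNA, at 38772 ± 2778 CPM in aFM against 74400 ± 24958 in DZ, and miR-451a, of red cells too. miR-486b-5p, not listed, held the same values as miR-486a-5p in every library. The defining myeloid and platelet miRNA miR-223-3p had 419 ± 365 CPM in PLL, 69.6 ± 71.3 in NY, 54.2 ± 47.3 in aFM and 101 ± 17.8 in DZ. The leukocyte miRNA miR-142a-3p, at 23 counts in all, had 144 ± 29.6 CPM in PLL and 83.3 ± 87.6 in aFM. It was at 0 in every NY and DZ library. The other arm, miR-142a-5p, at 866 counts in all, went the other way. It had 2392 ± 993 CPM in PLL, 2757 ± 547 in NY, 1814 ± 171 in aFM and 3181 ± 10.4 in DZ.

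In aFM against DZ, 2 of the 3 tested blood miRNAs were lower and 0 higher, where 9.85% of all miRNAs tested were lower and 9.09% higher. They were miR-486a-5p (log2 fold change -1.07 ± 0.33; edgeR, adjusted p = 0.0415) and the leukocyte miRNA miR-142a-5p (-0.91 ± 0.28, adjusted p = 0.0415). The median log2 fold change was -0.91 in the list and -0.14 over all miRNAs tested. With the replicate letter as a block neither passed. The call of miR-486a-5p was lost without each aFM and NY library, PLL replicate C and DZ replicates A and B, and that of miR-142a-5p without any library except PLL replicates A and B. DESeq2 called neither. In the other 5 comparisons edgeR and DESeq2 each called 0 of 3 blood miRNAs. At an unadjusted p under 0.05 there were 0 in NY against DZ and PLL against aFM and 1 in PLL against DZ. There were 2 in NY against aFM and 1 in PLL against NY. The share over all miRNAs tested at that unadjusted threshold was not counted, so no excess is read from these counts. Without PLL replicate B, or without DZ replicate C, edgeR called 1 in PLL against DZ. Over all 132 miRNAs that comparison had 6 higher and 11 lower without PLL replicate B, and 1 higher and 10 lower without DZ replicate C. The part of blood RNA, miR-142a-3p included, in the level of miR-126a-3p was not tested.

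The mesenchymal markers were listed for the labelled cells. In aFM against DZ, 0 of 11 were higher and 2 lower, beside 9.09% higher and 9.85% lower over all miRNAs tested, and their median log2 fold change was -0.14, equal to that over all miRNAs tested to 2 decimals. One was miR-21a-5p, with the most counts of the list over the 12 libraries, with 74969 ± 6227 CPM in aFM and 105629 ± 24283 in DZ (SD, n = 3 each). Its log2 fold change was -0.58 ± 0.16 (edgeR, adjusted p = 0.0415), lost without each aFM and NY library, PLL replicate C and DZ replicates B and C. The other was miR-145a-5p, with 29.1 ± 50.4 CPM in aFM and 469 ± 372 in DZ (edgeR, adjusted p = 0.0415), lost without any library except PLL replicate A and NY replicate C. In aFM miR-145a-5p ran from 0 to 87.3 CPM, near the limit of detection. miR-21a-5p was also higher in NY than in aFM by 0.74 ± 0.16 on the log2 scale (edgeR, adjusted p = 0.027), lost without each NY and aFM library and PLL replicates B and C. It was 1 of 11 in that comparison, where 0.758% of all miRNAs tested were higher. With the replicate letter as a block none of these 3 calls passed. In PLL the one lower marker was miR-143-3p, a miRNA of smooth muscle and stroma. It was lower in PLL than in DZ, aFM and NY (log2 fold changes -1.13, -0.99 and -1.14), and these 3 calls held whichever library was left out. Over all miRNAs tested, 3.03% were lower in PLL than in DZ, 3.03% lower than in aFM and 3.79% lower than in NY, against 1 of 11 in the list each time. Without PLL replicate B or C, 1 more marker was higher in each of these comparisons, and without PLL replicate B 1 more was lower in PLL than in DZ. Without B, all 132 miRNAs held 6 higher and 11 lower calls against DZ, 5 and 6 against aFM and 4 and 4 against NY. Without C they held 3 and 5, 3 and 4, and 4 and 4 in the same order. With predicted loci in the fit the log2 fold changes of miR-143-3p were 0.24, 0.80 and 0.050 and passed in neither direction. These values are relative to all rows, where the annotated medians were 1.66, 2.13 and 1.48. In NY against DZ edgeR called 0 of 11, with 1 at an unadjusted p under 0.05 and 0 by DESeq2. The share over all miRNAs tested at that unadjusted threshold was not counted.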

How the data were processed

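Small RNA of vesicles was measured in 12 libraries, grouped by title. The authors deposited raw counts, whole numbers with 1 column for each library and no scaling. FastQC, STAR, StringTie and DESeq2 and the build mm39 are named, per the submitters' processing notes. How miRNAs were called, from which miRBase release and after which read filters is not given in the sources used here. The design text names a small RNA kit, while messenger RNA library steps are described, per the labels' protocols.

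Of 3509 rows, 1978 annotated miRNAs were used and 1531 predicted loci left out of library sizes and tests, except in an alternative. edgeR 4.0.16 (R 4.3.3) with TMM factors, filterByExpr (minimum count 10, total 15) and 1 quasi-likelihood fit over all 12 libraries tested 132 miRNAs, with Benjamini-Hochberg adjustment within a comparison. Some of the 132 rows held values equal to another row in every library, miR-486a-5p and miR-486b-5p among them. The same reads may thus be counted in more than 1 row, in the annotated totals and in the tests. The fit was tested on simulated data. DESeq2 1.42.0 and other factors, filters, a replicate block and leaving out each library were alternatives. Intervals are exact 95% Poisson or Clopper-Pearson and cover counting error alone, as no source mentions molecular identifiers and PCR copies may be counted. They are two-sided. The limit of 3 counts for a count of 0, used for miR-126b and for miR-126a-5p in NY, is instead a one-sided 95% limit. Replicates of no group agreed within sampling noise. Same-lettered libraries deviated together in NY and DZ (correlations 0.18, 0.34 and 0.13, all over 0.1), which no label explains, and not in every pair of the other comparisons.

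The text names the 2 arms, other miR-126 names, the 5 miRNAs most like the 3p arm, up to 4 called members per list and comparison, and each list's most abundant tested member. The blood markers miR-142a-3p, miR-223-3p and miR-451a and the values of miR-126b were added as checks. miR-92a-3p and miR-486b-5p were named after their values were seen. A planned exact permutation test of the arm share is not reported, because the share holds the 3p counts that selected miR-126a. The members and lists were chosen with earlier results of these data known.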

Additional observations from a re-analysis of the deposited data

How the results depend on the processing

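Over all alternatives, 108 of the recomputed log2 fold changes of miR-126a-3p kept their sign and moved by less than 0.67, the SD between replicates on the log2 scale, while 4 moved by more and 2 changed sign. With predicted loci in the fit, PLL against aFM turned to 0.54, PLL against DZ moved to 2.73 and PLL against NY to 3.06. Annotated miRNAs took 29.2% to 60.7% of a library in PLL and 10.3% to 30.6% in the other groups, and the part of this was not tested. Leaving out single libraries gave 2.25 to 3.40 for aFM against DZ, -0.88 to 0.32 for NY against DZ and 0.83 to 2.05 for PLL against DZ, each upper value without DZ replicate B. The replicate block changed no sign of miR-126a-3p, with -0.40 for NY against DZ and 2.68 for aFM against DZ. For miR-126a-5p, aFM against DZ gave a log2 ratio of -0.060, and -0.89 to 0.29 with single libraries other than DZ replicate C left out, at 0.21 without aFM replicate B and 0.29 without aFM replicate C. Without DZ replicate C, which holds all 4 counts of DZ, there was no ratio. Fits of the 5p arm with other factors or with the block were not run, since it did not pass the filter. TMM-scaled library sizes for its ratio were added after the data were seen. With predicted loci in the fit, PLL against aFM had 9 vascular and 9 mesenchymal miRNAs higher and PLL against DZ 8 and 7, where 78 and 56 of the 130 annotated miRNAs tested in both fits were higher. The lower miR-143-3p in PLL than in DZ did not pass with library totals and no scaling factor. Depth limits the 5p arm, at 10 counts in all, and the level in NY and DZ, at 9 to 26 counts a library.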
